A study of Mus musculus with 4 samples.

Results

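This account follows 42 mouse genes of DNA replication and S phase, the cell cycle phase in which the genome is copied, through a time course with insulin in cultured osteoblasts, the bone-forming cells. These genes, and the other gene lists used below, were chosen by symbol with earlier results of these data known. Of the 42, 41 had a probe set that the array annotation assigns to a single gene symbol, and 39 of these were bright enough to be compared among 11661 genes in all. Chaf1a had no such probe set. Tyms (geometric mean intensity 27.2) and Orc1 (65.7) lay below the brightness filter of 66.2, which is the median over probe sets, and the dimmest member that passed was Cdc6 (94.3).

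The series holds 4 Affymetrix arrays, 1 for control osteoblasts at 0 h and 1 each for osteoblasts given 10 nM insulin for 6, 12 and 24 h. By the growth protocol all 4 cultures lacked the IGF-1 receptor, while the genotype entry of all 4 reads IGF-1 null, and the labels leave this unsettled. The protocol shared by all arrays describes confluent cultures that were starved of serum before insulin, and says neither for how long nor whether the 0 h culture was starved. The sources used here do not say how the mutant cells were derived. None of the 4 arrays is of an untreated culture later than 0 h, so insulin and time in culture cannot be told apart. Because each group is 1 array, none of the differences has a replicate check, and no test or error can be given. The number of arrays limits the precision. A gene is called higher or lower at 1.5-fold against 0 h, or at a log2 difference of 0.32 between insulin arrays, and the share of all 11661 genes past the same size is given with the first count of each comparison and with the other gene lists.

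Replication begins in G1, when the origin recognition complex, Cdc6 and Cdt1 load the MCM helicase onto DNA, a step called licensing. At the start of S phase Cdc45 and the GINS complex join the helicase, and polymerases alpha, delta and epsilon copy both strands with the sliding clamp PCNA and its loader RFC. Transcription of most of these genes is driven by E2F factors when cells pass from G1 to S phase. In osteoblast cultures proliferation is known to precede the making of bone matrix.

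The 0 h array stood apart from the insulin arrays in ways that reach beyond replication genes. Eif2s3y, a gene on the Y chromosome, stood at 12.2 at 0 h and at 295, 305 and 326 at 6, 12 and 24 h. Xist, which coats and silences an X chromosome, stood at 109, 1636, 1278 and 1463. Whole chromosomes were shifted, with a median log2 difference of 12 h minus 0 h between -0.22 (chromosome 8) and 0.37 (chromosome 4). Igf1r had 388, 259, 265 and 319, and Igf1 had 1641, 5532, 5983 and 6024. Where these probe sets lie relative to a deleted part is not known here, so they check neither genotype. Of 10 osteoblast markers Runx2, Bglap and Spp1 had no single-symbol probe set, and of the 7 above the filter 5 were at least 1.5-fold higher than 0 h at each time, and the summed intensity of the list was 53282, 78900.4, 86711 and 89509. Col1a1, Col1a2 and Sparc were bright at 0 h (13802, 20828 and 18290), Ibsp had 202, whereas Alpl (61.5), Sp7 (60.8) and Pth1r (36.9) were below the filter value there. Of all genes, 18.6%, 20.5% and 19.5% were at least 1.5-fold higher than 0 h at 6, 12 and 24 h. Markers of other cell types were higher on the insulin arrays as well. At 0 h each of these lists held both dim and bright members: Cd68 (36.1) and Lyz2 (248), Col10a1 (35.4) and Sox9 (459), Adipoq (23.4) and Fabp4 (664), Cnn1 (36.0) and Acta2 (5705). Macrophage markers were higher in 6 of 7 at each time with summed intensities of 1000.0, 5561, 6979 and 7873, with Cd14 lower and Ptprc below the filter. Chondrocyte markers were higher in 4 of 5 (958, 6260.5, 9529 and 10746) and adipocyte markers in 3 of 4 (1016, 2679.7, 4208 and 5449), with Pparg at 223, 107, 184 and 196. All 4 smooth muscle markers were higher (5959.8, 40875, 43081 and 40813). Of the endothelial markers Pecam1, Cdh5 and Tek were below the filter, and Kdr had 123, 137, 111 and 123, most of the list's sum (193, 225, 192 and 206). In RNA from whole cultures, fewer cells of a type and less RNA per cell cannot be told apart. The part of these markers, and of the sex-linked and chromosome differences, in the results against 0 h was not tested, except that the chromosome shift was removed in an alternative given below. The differences between insulin arrays hold no 0 h value, although the brightness filter and the choice of probe set rest on all 4 arrays.

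Most replication genes were lower on each insulin array than on the 0 h array. At 6 h, 29 of 39 members were at least 1.5-fold lower, at 12 h 32 and at 24 h 32, where 12.8%, 13.3% and 13.3% of all genes were. No member was 1.5-fold higher at any time, against 18.6%, 20.5% and 19.5% of all genes. The median log2 difference over members was -0.97 at 6 h, -1.33 at 12 h and -1.16 at 24 h, and over all genes it was 0.01, 0.03 and -0.00012. With the median of each gene's chromosome removed, 29, 33 and 33 members were lower and the medians were -0.94, -1.39 and -1.16. These 3 comparisons share the 0 h array, so their likeness is not independent evidence.

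**Figure D1:**
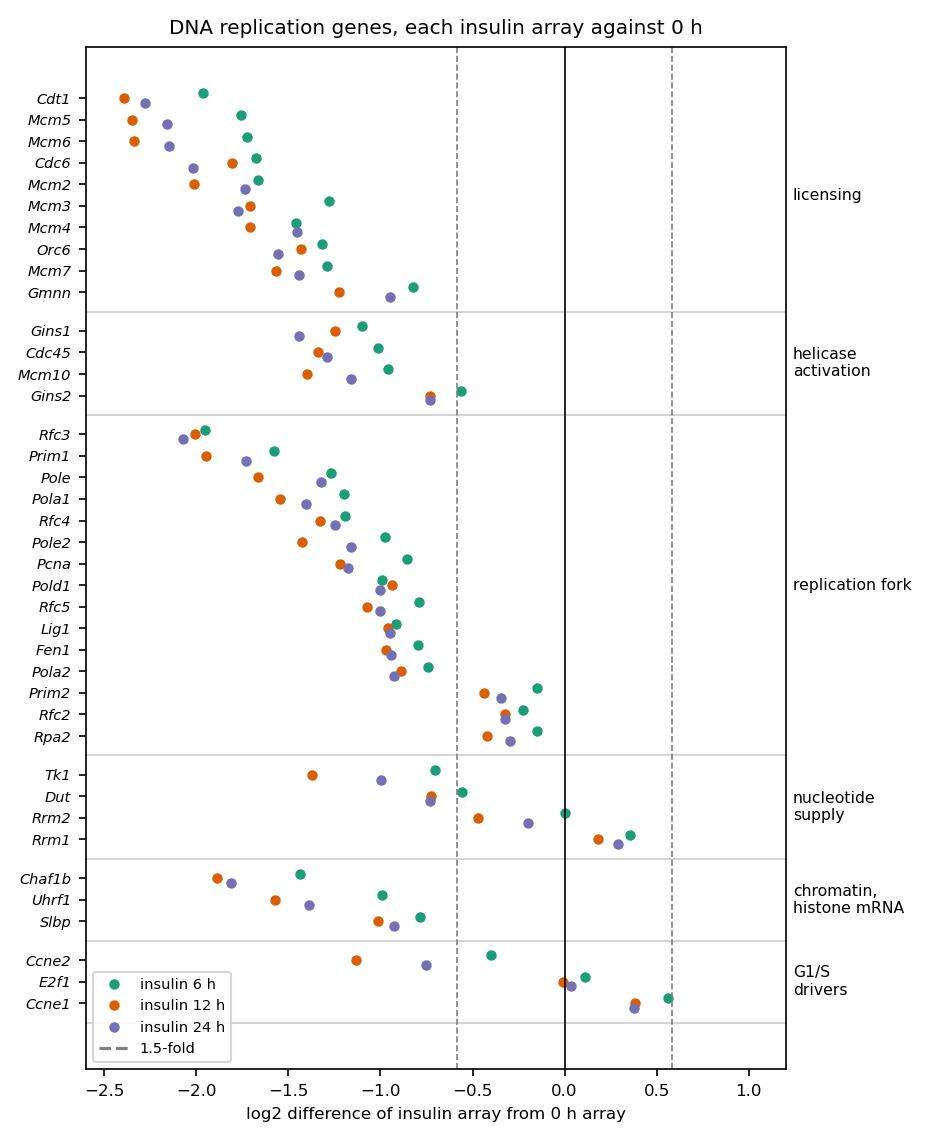
Log2 difference of each insulin array from the 0 h array (x axis) for the 39 members above the brightness filter (y axis), grouped by role, with 1 point per insulin array and dashed lines at 1.5-fold. All 10 licensing members lie left of the lower line at every time, while Ccne1, E2f1 and Rrm1 lie near or right of 0.

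Promoters of the members were searched for E2F sites. Stretches of Mcm5, Mcm6 and Rfc3 are printed because their matches before the start lie outside every gene of the RefSeq table. Stretches with matches before the start of Mcm7, Cdc6, Pola1, Orc1 and Uhrf1 overlap a gene and are not printed. Intensities played no part in this choice. The letters searched were TTTCGCGC, TTTGGCGC, TTTCCCGC and TTTGCCGC on both strands, in windows from 250 bases before to 50 bases after each RefSeq start (GRCm38.p6). Capitals mark a match, and in Mcm5 and Mcm6 a match on each strand overlaps in a single run of capitals. The Mcm5 stretch is chr8:75109331-75109392 on the plus strand, 178 to 117 bases before the start. The Mcm6 stretch is chr1:128359720-128359840 on the minus strand, 135 to 15 bases before the start. The Rfc3 stretch is chr5:151651209-151651243 on the minus strand and ends 1 base before the start. Rfc3 held a further match, TTTCCCGC on the opposite strand, that begins at the start and is not printed.
Mcm5: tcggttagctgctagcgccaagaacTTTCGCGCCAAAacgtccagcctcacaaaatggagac
Mcm6: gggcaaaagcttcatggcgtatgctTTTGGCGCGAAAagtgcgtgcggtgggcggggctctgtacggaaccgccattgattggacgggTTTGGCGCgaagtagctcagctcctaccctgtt
Rfc3: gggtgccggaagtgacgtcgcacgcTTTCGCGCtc

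RefSeq windows were given for 34 members, and not for Mcm4, Gins1, Gins2, Rfc2, Prim2, Pole, Ccne2 and Gmnn. At least 1 E2F match stood in 13 of these 34 genes and in 13 of their 39 windows (33.3%), against 744 of all 32851 windows (2.26%). The 13 were Mcm3, Mcm5, Mcm6, Mcm7, Cdt1, Cdc6, Orc1, Rfc3, Pola1, Pold1, Pole2, Lig1 and Uhrf1. Of 26 members that were 1.5-fold lower at 12 h than at 0 h and had a window, 12 held a match. Orc1, the remaining gene with a match, was below the brightness filter. CCAAT, the letters bound by NF-Y, stood in 53.8% of member windows and 37.4% of all windows on either strand. TTTGAA, the core of the element found in many mitotic promoters, stood in 7.69% and 17.9%. A match is a description of letters, and its absence says only that these letters are not in the window.

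The licensing genes were the lowest group, with all 10 measured members at least 1.5-fold lower than 0 h at each time and medians of -1.56, -1.76 and -1.76. Cdt1, which recruits the MCM helicase to origins, had intensities of 2355, 604, 448 and 486 at 0, 6, 12 and 24 h. That is 3.90, 5.25 and 4.85-fold lower, and its other bright probe set gave 876, 196, 149 and 154. Cdc6, the ATPase that works with Cdt1, had 244, 76.6, 69.9 and 60.4, so on the insulin arrays it was close to the filter value. Gmnn, whose product geminin blocks Cdt1 after licensing, was 1.77, 2.34 and 1.93-fold lower. The origin recognition subunit gene Orc6 had 981, 394, 363 and 334. Orc1, below the filter, had 73.3, 69.2, 61.0 and 60.4 by its brightest probe set. By its other probe set Orc1 had 40.6, 33.0, 27.3 and 22.5.

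All 6 subunits of the MCM2-7 helicase ring were at least 2-fold lower at each time, where 4.62%, 5.31% and 4.82% of all genes were. Mcm5 had 2041, 603, 401 and 458, and Mcm6 had 1664, 503, 329 and 376, which is 5.09 and 5.06-fold lower at 12 h. Mcm2 had 1810.0, 571, 449 and 543, and Mcm3 had 749, 308, 229 and 219. Mcm4 had 1643, 599, 502 and 599, and Mcm7 had 3805, 1558, 1285 and 1401. By these probe sets the 0 h value was thus the highest for every subunit, and the 12 h value the lowest for all but Mcm3. At 12 and 24 h the other bright probe sets of Mcm3 had 209 and 236, 142 and 151, and 92.0 and 90.3. Its lowest array therefore depended on the probe set. Probe sets of the same subunit that were above the filter differed by at most 0.43 in log2 difference from 0 h, and all were lower at each time. Dim probe sets of Mcm3, Mcm5 and Mcm6 differed more, with log2 differences at 6 h of 0.16, -1.07 and -0.52. For Mcm5, on chromosome 8, the log2 difference at 12 h was -2.35 and with the chromosome median removed -2.13.

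Genes of helicase activation were lower to a smaller degree. Mcm10, an initiation factor that joins the helicase at firing, had 193, 99.3, 73.0 and 86.1. Cdc45, the helicase cofactor, had 228, 113, 90.2 and 93.4. Of the GINS subunits, Gins1 had 225, 105, 94.9 and 82.9 and Gins2 had 447, 303, 269.5 and 269.5. Gins2 was 1.48-fold lower at 6 h, just short of the threshold, and with its chromosome median removed its log2 differences at 12 and 24 h were -0.51 and -0.46, which is no longer called. The group had 3, 4 and 4 of 4 members lower at the 3 times.

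At the replication fork 12 of 15 members were lower at each time, with medians of -0.92, -1.07 and -1.001, but the subunits of a complex were not lower to the same degree. Among the clamp loader subunits Rfc3 had 1039, 269, 259 and 247, a difference of 3.86, 4.02 and 4.20-fold, and its other probe set was lower too (872, 237, 231 and 238). Rfc4 had 577, 253, 229.996 and 243, and Rfc5 had 437, 253, 208 and 218. Rfc2 had 991, 846, 791 and 791, a log2 difference of -0.32 at 12 h, and all 3 of its probe sets stayed under 1.5-fold. Pcna, the clamp that RFC loads, had 6569.9, 3635, 2817 and 2909.

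The primase-polymerase alpha complex, which makes the primers, was uneven as well. Its catalytic primase subunit gene Prim1 had 971, 325, 252 and 293, and Pola1, the polymerase subunit, had 381, 167, 131 and 144. Pola2 was 1.67, 1.85 and 1.90-fold lower. For Prim2, the large primase subunit, the probe sets differed in size: the brightest had 301, 271, 222 and 237, and the other bright probe set had 367, 186, 152 and 160. By the brightest probe set Prim2 was not called lower, and by the other its log2 differences were -0.98, -1.28 and -1.20. The leading-strand polymerase gene Pole had 331, 138, 104 and 133, and its partner Pole2 had 522, 266, 194 and 233. Pold1, the catalytic subunit of polymerase delta, had 347, 175, 181 and 174.

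Genes that finish and cover the DNA differed among themselves. Fen1, the nuclease that trims Okazaki fragments, had 2055, 1183, 1050.3 and 1069 by its brightest probe set, and 657, 285, 229.9 and 213 by the other. Lig1, the ligase that joins the fragments, had 637, 337, 327 and 329.7, so the 3 insulin arrays were nearly level. Rpa2, a subunit of the single-strand binding protein, had 322, 290.1, 241 and 262 and was not called. Its other probe set had log2 differences of -0.49, -0.90 and -0.90. With the chromosome median removed, Rpa2 and Prim2 passed 1.5-fold at 12 and 24 h (log2 -0.79 and -0.62 for Rpa2, -0.71 and -0.61 for Prim2).

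**Figure D2:**
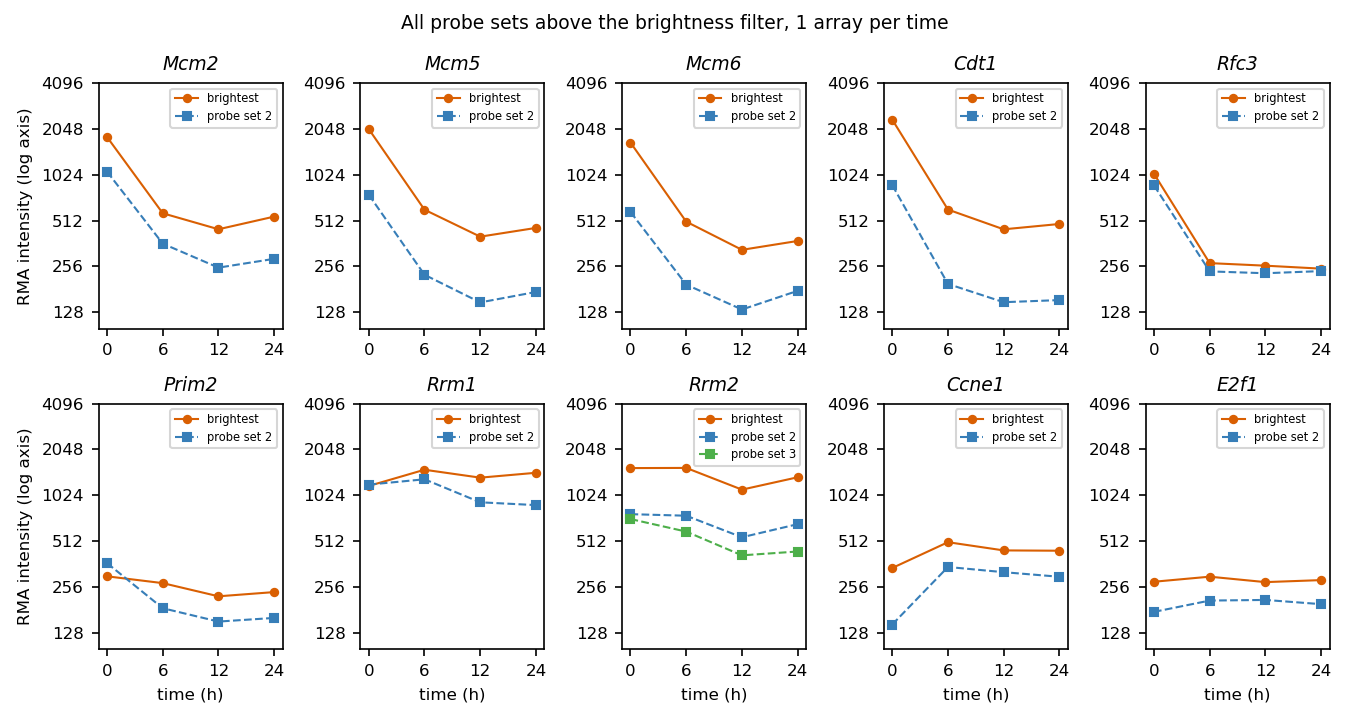
Intensity (log axis) against time in hours for 10 members, 1 array per time, with a line for each probe set above the brightness filter. For Mcm2, Mcm5, Mcm6, Cdt1 and Rfc3 the probe sets run alike and are highest at 0 h, Ccne1 is lowest at 0 h on both, and those of Rrm1 and Prim2 run apart.

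Nucleotide supply genes did not share 1 pattern. Tk1, the thymidine kinase of S phase, had 468, 287, 181 and 235, which is 1.63, 2.59 and 1.99-fold lower. Dut, the enzyme that removes dUTP, was 1.47, 1.65 and 1.66-fold lower. Its other probe set, just under the filter at 68.0, 70.4, 63.3 and 56.4, was nearly flat, and when its probe sets were averaged Dut was not called at 12 or 24 h. The ribonucleotide reductase genes were not called by their brightest probe sets. Rrm2, the regulated subunit, had 1544, 1548, 1115 and 1344, and the dimmest of its 3 probe sets had 715, 591, 413 and 437. When its probe sets were averaged Rrm2 was called lower at 12 h (log2 -0.59). Rrm1, the large subunit, had 1179, 1506, 1336 and 1438, while its other bright probe set had 1203, 1304, 920.5 and 882. The direction at 12 and 24 h for Rrm1 therefore depended on the probe set. Tyms, thymidylate synthase, had 34.6, 26.3, 25.3 and 23.7 by the brightest of its 4 single-symbol probe sets, all below the filter, and a further probe set that names Tyms together with a pseudogene was not used.

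All 3 measured genes of chromatin assembly and histone mRNA were lower at each time. Chaf1b, a subunit of the histone chaperone CAF-1 that works behind the fork, had 370.4, 137, 100.3 and 105.5. Uhrf1, which recognises hemimethylated DNA and guides maintenance methylation, had 294, 148, 98.5 and 112, and its other probe set 132, 96.5, 53.8 and 47.8. Slbp, the protein that binds the stem-loop of replication-dependent histone mRNAs, had 1448, 841, 718 and 762.

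The G1/S drivers went in different directions. Ccne1, a cyclin that activates Cdk2 before S phase, had 341, 504, 445 and 443, and its other probe set 145, 346, 319.95 and 298.5. By the brightest probe set its log2 differences from 0 h were 0.56, 0.38 and 0.38 and by the other 1.26, 1.14 and 1.04, so its call depended on the probe set while its direction did not. Ccne2, the related cyclin, had 179, 136, 81.7 and 106 and was 1.32, 2.19 and 1.69-fold lower. E2f1, an activating E2F factor, was close to level with 277, 299, 275 and 284 by its brightest probe set and 176, 208, 210.3 and 197 by the other. Ccne1 and E2f1 were thus not lower with the licensing genes.

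Between insulin arrays, members were lower at 12 h than at 6 h. Lower by at least 0.32 (log2) were 18 of 39 members (46.2%), against 2.5% of all genes, and no member was higher by that much, against 5.28%. The median over members was -0.28, and over all genes 0.03. The central 95% of all genes lay between -0.32 and 0.44 for this pair of arrays, which gives the size of differences that most genes showed. Of the 18, 8 had several probe sets above the filter. In these 8 every such probe set was lower at 12 h, and in 6 each was past 0.32. At 1.5-fold, 4 members were lower at 12 h than at 6 h (0.334% of all genes) and none was higher (1.14%). The 12 h array was the lowest of the 3 insulin arrays for 28 of 39 members, against 24.5% of all genes, the 24 h array for 11 (36.7%) and the 6 h array for 0 (38.8%).

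Members with the widest spread over the insulin arrays were Ccne2, Tk1, Mcm6, Mcm5 and Uhrf1. From 6 to 12 h Ccne2 was 1.66-fold lower, Tk1 1.59-fold, and Mcm6 1.53-fold, while Mcm5 and Uhrf1 had log2 differences of -0.59 and -0.58. The fork genes Pole and Pole2 were 1.32 and 1.37-fold lower, and Pola1, Prim1 and Pcna had log2 differences of -0.35, -0.37 and -0.37. Rrm2, which was level between 0 and 6 h, was 1.39-fold lower at 12 h than at 6 h, and all 3 of its probe sets were lower. By contrast, Rfc3, Lig1 and Pold1 differed by at most 1.04-fold between 6 and 12 h although they were 1.92 to 4.02-fold lower than 0 h at 12 h, with the other Pold1 probe set at a log2 difference of -0.26 from 6 h. A low value against 0 h and a low value at 12 h against 6 h were thus not found in the same degree in each gene.

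At 24 h most members stood above their 12 h value (28 of 39) and below their 6 h value (38 of 39). Against 6 h, 8 of 39 were lower by at least 0.32 (20.5%), where 1.89% of all genes were, and none was higher (4.81%). These were Mcm3, Mcm5, Mcm6, Cdc6, Gins1, Ccne2, Uhrf1 and Chaf1b, by 1.27 to 1.41-fold. By their other bright probe sets the log2 difference of Mcm3 was -0.11, -0.37 and -0.21, and that of Mcm6 was -0.13. The calls of Mcm3 and Mcm6 thus depended on the probe set, while their direction did not. Against 12 h, 3 members were higher by at least 0.32 (7.69%), where 1.73% of all genes were, and none was lower (1.48%). Tk1 and Ccne2 were 1.30-fold higher at 24 h than at 12 h, and Pole 1.27-fold. By the brightest probe sets, no member was 1.5-fold lower (0.12% of all genes) or higher (1.68%) at 24 h than at 6 h. None was 1.5-fold lower (0.103%) or higher (0.103%) at 24 h than at 12 h. The other bright probe set of Uhrf1 had log2 differences of -1.01 from 6 h and -0.17 from 12 h. Among members not called against 6 h, another bright probe set of Mcm2, Mcm7, Cdt1, Rrm1, Rrm2, Fen1 and Rpa2 was lower by at least 0.32. The medians over members were -0.19 for 24 h minus 6 h and 0.09 for 24 h minus 12 h, and those over all genes -0.0023 and -0.03.

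**Figure D3:**
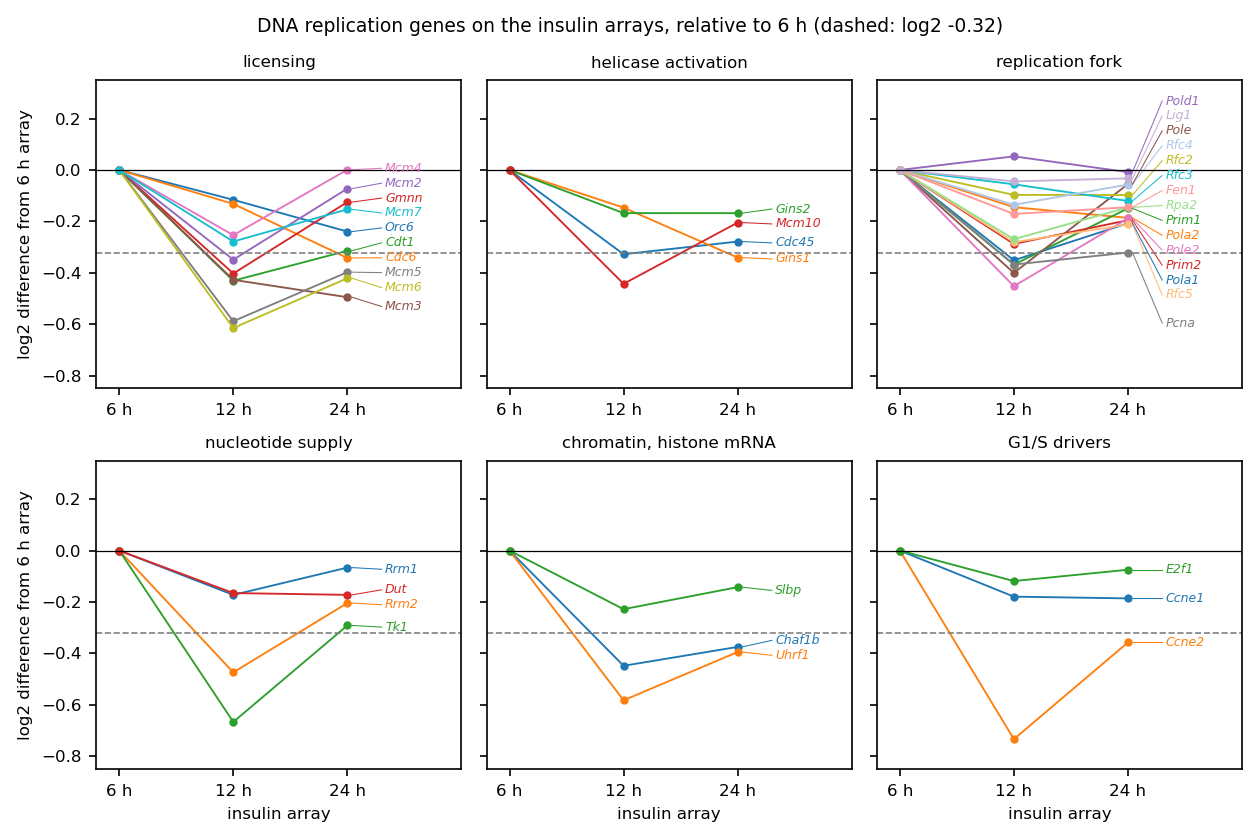
Log2 difference from the 6 h array (y axis) on the 6, 12 and 24 h insulin arrays (x axis) for the 39 members, 1 line per gene and 1 panel per role, with a dashed line at -0.32. Most lines are lowest at 12 h (28 of 39), with Ccne2 and Tk1 the deepest, while Lig1 and Pold1 are nearly flat.

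Mitosis genes and markers of other cells also differed between the insulin arrays. All 9 measured mitosis markers, among them Mki67 and Top2a, were lower by at least 0.32 at 12 h than at 6 h (2.5% of all genes), and 8 of 9 were higher by as much at 24 h than at 12 h (1.73%). Mki67, the proliferation antigen gene, had 897, 525, 365 and 601, and the mitotic kinase gene Bub1 had 425, 267, 138 and 234. Their medians were -0.58 for 12 h minus 6 h and 0.49 for 24 h minus 12 h, against -0.28 and 0.09 for the replication members. Macrophage markers were higher by at least 0.32 at 12 h than at 6 h in 5 of 7, chondrocyte markers in 4 of 5, adipocyte markers in 4 of 4, osteoblast markers in 4 of 7 and smooth muscle markers in 0 of 4, against 5.28% of all genes. The 3′ to 5′ log2 ratio of the Actb controls lay between 0.33 (6 h) and 0.50 (12 h) over all arrays, and that of Gapdh between -0.16 and 0.04. The part of these differences in the 12 h values was not tested.

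**Figure D4:**
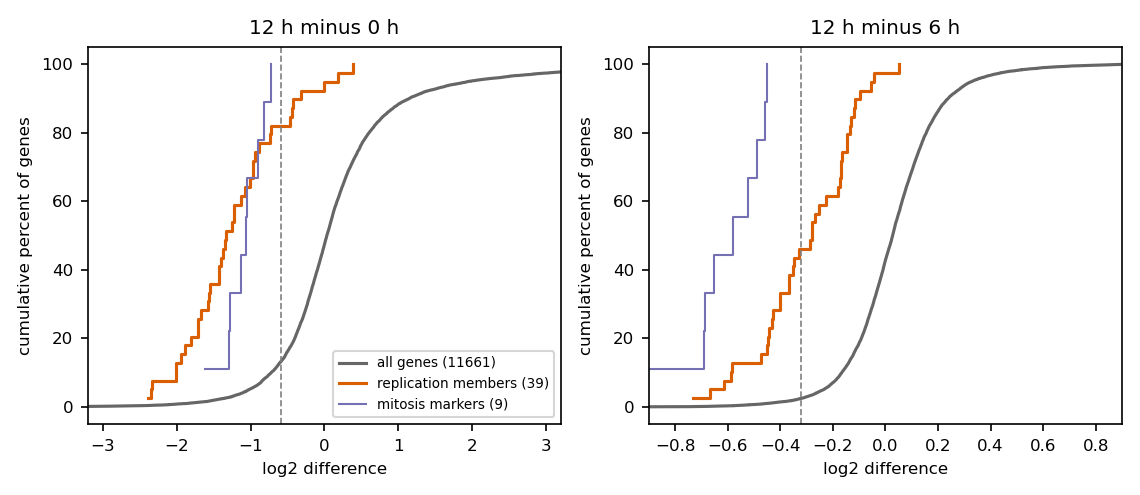
Cumulative percent of genes (y axis) against log2 difference (x axis) for 12 h minus 0 h (left) and 12 h minus 6 h (right), with 39 replication members, 9 mitosis markers and all 11661 genes, and a dashed line at 1.5-fold lower (left) or at -0.32 (right). At that line members reach 82.1% on the left and 46.2% on the right, against 13.3% and 2.5% of all genes.

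Replication genes outside the member list went the same way with a smaller median. Of 34 above the filter, 16, 16 and 17 were at least 1.5-fold lower at the 3 times (47.1%, 47.1% and 50%, against 12.8%, 13.3% and 13.3% of all genes). Higher were 0, 1 and 1 (all genes 18.6%, 20.5% and 19.5%), and the medians were -0.51, -0.57 and -0.55. Those farthest from 0 h were Hells, a chromatin remodeller that works with DNA methylation, with 1219, 171, 119.8 and 135. Cdc7, the kinase that fires origins, had 222, 88.4, 61.8 and 78.4, and Gins3 had 321, 121, 134 and 122. Atad5, which helps unload PCNA, had 142, 57.7, 46.7 and 52.7. Every insulin value of Atad5 lay below the filter value, so Atad5 passed the filter only through its 0 h value. The 12 h value of Cdc7 lay below the filter value as well. Between 6 and 12 h 5 of 34 (14.7%, against 2.5% of all genes) were lower by at least 0.32, with a median of -0.09. Pole3, a small subunit of polymerase epsilon that also serves in chromatin complexes, had 538, 783, 809 and 831 by its brightest probe set, and another probe set pointed the other way.

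Genes of nucleotide synthesis and of entry into the cell cycle held both lower and higher members. Of 23 nucleotide synthesis genes 7, 7 and 8 were lower than 0 h (30.4%, 30.4% and 34.8%, against 12.8%, 13.3% and 13.3% of all genes). Higher were 2, 2 and 1 (8.70%, 8.70% and 4.35%, against 18.6%, 20.5% and 19.5% of all genes), with medians of -0.12, -0.18 and -0.24. Shmt1, which feeds thymidylate synthesis, had 458, 148, 171 and 172, Ppat, which starts purine synthesis, had 241, 95.02, 93.6 and 90.7, and the deaminase gene Dctd had 388, 180.2, 164 and 136. Ctps, a CTP synthase, had 918, 1974, 2024 and 1831. Of 29 regulators of G1 and S phase entry 9, 11 and 12 were lower (31.0%, 37.9% and 41.4%). Of all genes 12.8%, 13.3% and 13.3% were. Among the regulators 7, 6 and 6 were higher (24.1%, 20.7% and 20.7%), where 18.6%, 20.5% and 19.5% of all genes were. The inhibitor gene Cdkn1c had 32.1, 830, 849 and 952 and the repressive factor gene E2f6 286, 1203, 1173 and 1054. The inhibitor gene Cdkn1b had 994, 346, 292 and 362, and Skp2, which targets the Cdkn1b protein for destruction, had 724, 265, 251 and 225. Chosen after their values were seen, Ccnd1, a cyclin of early G1, had 1463, 4112, 4075 and 4227, Cdkn1a, the p21 inhibitor gene, had 4525, 11289.5, 11486 and 10459.8, and Ccna2, the cyclin of S phase, had 1118, 551, 365 and 519.

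**Figure D5:**
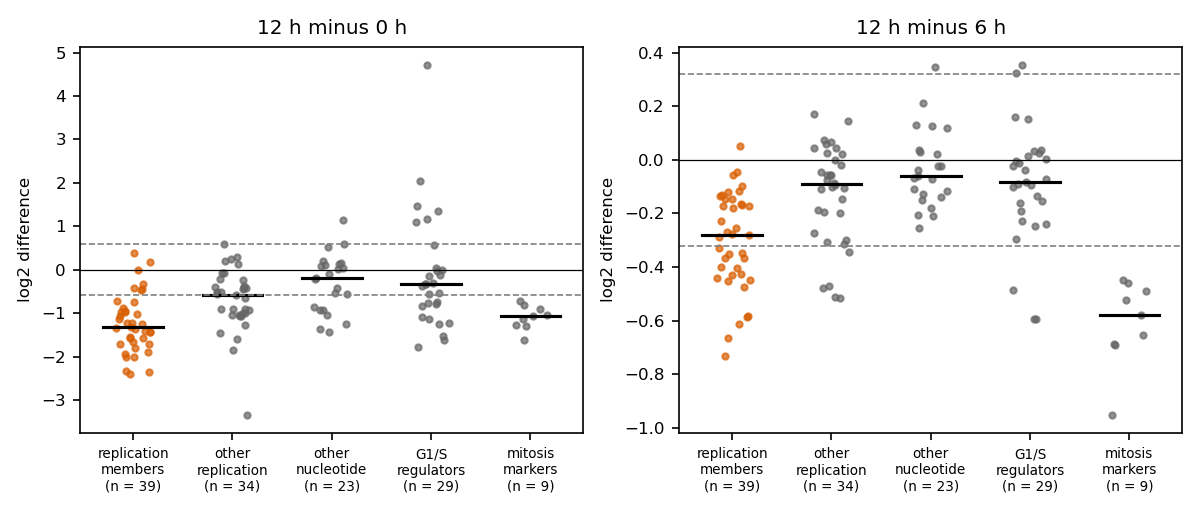
Log2 difference (y axis) of single genes above the brightness filter for 12 h minus 0 h (left) and 12 h minus 6 h (right) in 5 lists (x axis), with a bar at the median and dashed lines at 1.5-fold (left) or 0.32 (right). The median of the 39 members is -1.33 and -0.28, that of the 34 other replication genes -0.57 and -0.09, and that of the 9 mitosis markers -1.06 and -0.58.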

How the data were processed

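Total RNA from 4 cultures was hybridised to Affymetrix arrays, 1 per group. The deposited table gives 1 intensity per probe set and array, and RMA is named in the submitters' processing notes. RMA corrects background, normalizes between arrays and summarises probes. The sources used here name neither its software nor its version and options. The deposited intensities run to 31292 and were read as a linear scale, and log2 was taken. RMA compresses differences of dim probe sets. Array medians lay between 65.0 and 65.7, and all 4 columns were used.

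Of 45037 probe sets that are not controls, 34945 name a single gene, in all 18193 genes, in an annotation that can be old. Each gene took the value of its brightest probe set (by mean log2 over the arrays) and kept at or above the median of all probe sets, 66.2, which left 11661 genes. Array minus array differences were counted at 1.5-fold (0 h) or log2 0.32 (insulin arrays), with no test. The members and lists were chosen with earlier results of these data known. Named were members by role (the largest differences, the widest insulin range) and up to 4 genes per list of other replication, nucleotide and regulator genes, with the remaining members added for completeness and cell type and mitosis markers named as examples after their values were seen. Counting was checked on simulated data. Promoter sequences are RefSeq's (GRCm38.p6). Python 3.11.15, numpy 2.4.6, pandas 2.3.3, statsmodels 0.14.6 and matplotlib 3.10.9 were used. Alternatives were 2-fold or 1.5-fold thresholds, other brightness filters, quantile normalization, median centring, a loess curve with span 0.3, other probe set rules, and chromosome medians removed.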

Additional observations from a re-analysis of the deposited data

How the results depend on the processing

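No paired analysis was possible because each group holds 1 array, and leaving out a replicate was not possible for the same reason. Under 4 rescalings (quantile normalization, median centring, a loess curve removed, chromosome medians removed) 29 to 31, 32 to 33 and 32 to 33 members were lower than 0 h at 6, 12 and 24 h, and 18 to 20 were lower at 12 h than at 6 h. At 2-fold, 17, 26 and 22 members were lower than 0 h at 6, 12 and 24 h, against 4.62%, 5.31% and 4.82% of all genes. At 1.5-fold between insulin arrays, 4 were lower at 12 h than at 6 h (0.334% of all genes). At that size 0 were lower at 24 h than at 6 h (0.12%), and 0 were higher at 24 h than at 12 h (0.103%). For 24 h against 6 h, 5 members were lower with the stricter filter (34 members left) and 3 when all probe sets of a gene were averaged (34 members). Ccne1 was the 1 member called higher than 0 h, at 6 h with a loess curve removed and at each time when probe sets were averaged or suffixed ones left out (33 members), where its other probe set counts. Otherwise the cause was not tested. Counts within 1.5 times of the reported value were taken as unaltered, as were medians. Of single genes against 0 h, 862 values kept their call or lack of it, 21 gained a call, 5 lost it and none reversed. Of the 862, 117 without a brightness filter and 102 with the stricter filter could not differ, because a filter leaves the values as they are. Reversal was counted only for called values. Rrm1 at 12 h, not called, went from 0.18 to -0.06 with chromosome medians removed. Brightness limits what can be seen for Orc1 and Tyms.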

Other observations

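Some replication genes fell below the brightness filter through low values on the insulin arrays, and are given here as values chosen after they were seen. Dscc1, a subunit of an alternative clamp loader, had 284 at 0 h and 31.8, 25.004 and 26.9 at 6, 12 and 24 h. Chtf18, another subunit of that loader, had 102, 59.8, 50.5 and 56.4, and Mcm8, a helicase related to the MCM ring, had 99.9, 49.2, 46.7 and 50.3.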
